A study of Mus musculus with 8 samples.

Results

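The nuclear genes of oxidative phosphorylation were followed in leptotene and zygotene spermatocytes of Bend2 wild-type (WT) and knockout (KO) mice. Members were chosen by a rule on names, with earlier results of these data known. It took every gene named in the deposited transcript assemblies by the first letters of its symbol. These were Nduf followed by a, b, c, s or v, Uqcr, Sdh followed by a to d, Cox4 to Cox8, or Atp5. Left out were 5 names that end in -ps. The rule found 93 genes of the 33896 with a value in any library, and all 93 were among the 23025 genes tested. They comprised 35 subunits of complex I, 4 of complex II, 8 of complex III, 16 of complex IV with Ndufa4 and Ndufa4l2 counted there, 15 of ATP synthase and 15 assembly and associated factors.

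Oxidative phosphorylation runs in the inner mitochondrial membrane. Complexes I and II pass electrons from NADH and succinate to ubiquinone, complex III passes them to cytochrome c and complex IV, cytochrome c oxidase, to oxygen. Protons pumped by complexes I, III and IV then drive ATP synthase. Most subunits are encoded in the nucleus and a few in mitochondrial DNA. Both sets of genes are needed to build complexes I, III and IV and ATP synthase, while complex II is encoded in the nucleus alone. Male germ cells are known for replacing some ubiquitous subunits with testis isoforms, among them Cox6b2, Cox7b2 and Cox8c in complex IV and the testis cytochrome c Cyct.

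Per the labels, all mice were of the C57BL/6 strain, with 2-month as the developmental stage, and the cells were isolated by flow cytometry. Leptotene and zygotene cells of each genotype made 4 groups of 2 libraries each. The KO allele, the gate of the sort and the animals behind each library are not given in the sources used here. P-values therefore measure only the spread between these libraries, which may be technical. No gene with a value carried the symbol Bend2, so the targeted gene was not analysed here and the genotype labels were not checked by it.

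The measure throughout is scaled TPM, the deposited TPM (a length-corrected share of the transcripts of a library) summed over the transcripts of a gene and divided by a median-of-ratios factor of the library. Because of that correction, levels of different genes can be compared on it. Fold changes are differences of log2(scaled TPM + 1), a scale that shrinks the change of lowly expressed genes, and are given ± standard error. A gene is said to have risen or fallen where limma gave a Benjamini-Hochberg adjusted p under 0.05 over all genes tested. The main comparison of the genotypes was the KO-WT difference averaged over the 2 stages, with 4 libraries of each genotype. Aligned sequence implied by the files came to between 6.82 and 9.45 gigabases per library, and no read counts were used.

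Libraries and markers differed in ways that stand beside every KO-WT result. Unannotated single-exon transcripts held 9.90% to 14.4% of the TPM of 4 libraries and 22.3% to 24.0% of the other 4, with 1 library of each kind in each group. Within a genotype, the leptotene and zygotene libraries of the same number were of the same kind and had closer sums of 5 erythroid markers than libraries of different numbers, at 128 and 256 scaled TPM in WT replicate 1, 2589 and 2724 in WT replicate 2, 1012 and 2086 in KO replicate 1 and 8.38 and 7.91 in KO replicate 2. They may share a source, which the labels do not give, and then n = 4 per genotype, its SD and the permutation tests count linked libraries as separate. Summed scaled TPM of 15 pachytene markers ranged from 1329 to 2044 over the WT libraries and from 308 to 585 over the KO libraries, with 11 markers lower in KO. Calm4 was at 0 in every KO library and in both WT zygotene libraries. For 15 round spermatid markers the sums were 5785 to 10920 in WT and 802 to 1796 in KO, with 15 markers lower in KO. Of 11 spermatogonial markers 7 were higher in KO, with sums of 224 to 294 in WT and 514 to 760 in KO. None of 13 leptotene and zygotene markers passed the test, with sums of 478 to 1154 in WT and 578 to 832 in KO. Of 10 macrophage markers 6 were lower in KO, with sums of 153 to 682 in WT and 50 to 79.1 in KO, and of 8 peritubular and stromal markers 3 were lower, with sums of 315 to 883 and 71.1 to 528. No Sertoli, Leydig or erythroid marker passed the test. The part of these differences in the results on oxidative phosphorylation genes was not tested.

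Over both stages 5 members passed the test, in different complexes and directions. Cox8c, Cox7b2 and Ndufa4l2, all counted in complex IV, were lower in KO, and the complex I subunits Ndufb9 and Ndufa11 were higher. The 2 higher members are 2 of 93, where 2.23% of all genes tested were called higher, and the 3 lower members are 3 of 93, where 6.59% of all genes were called lower. At an unadjusted p under 0.05, 21 members were higher and 7 lower, beside 9.14% and 16.4% of all genes. The median log2 fold change over the 93 members was 0.23, with a positive estimate for 67 of them (72.0%). Over all genes tested the median was -0.06 and 46.2% of estimates were positive. With same-numbered libraries of a genotype linked in the model (consensus correlation 0.229), a fit chosen after seeing the data, Cox8c and Ndufb9 passed the limma test (adjusted p = 0.0104 and 0.0333). Ndufa4l2, Cox7b2 and Ndufa11 then did not (0.0663, 0.0841 and 0.0925). In bulk samples, fewer cells of a type and less RNA per cell cannot be told apart.

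**Figure D1:**
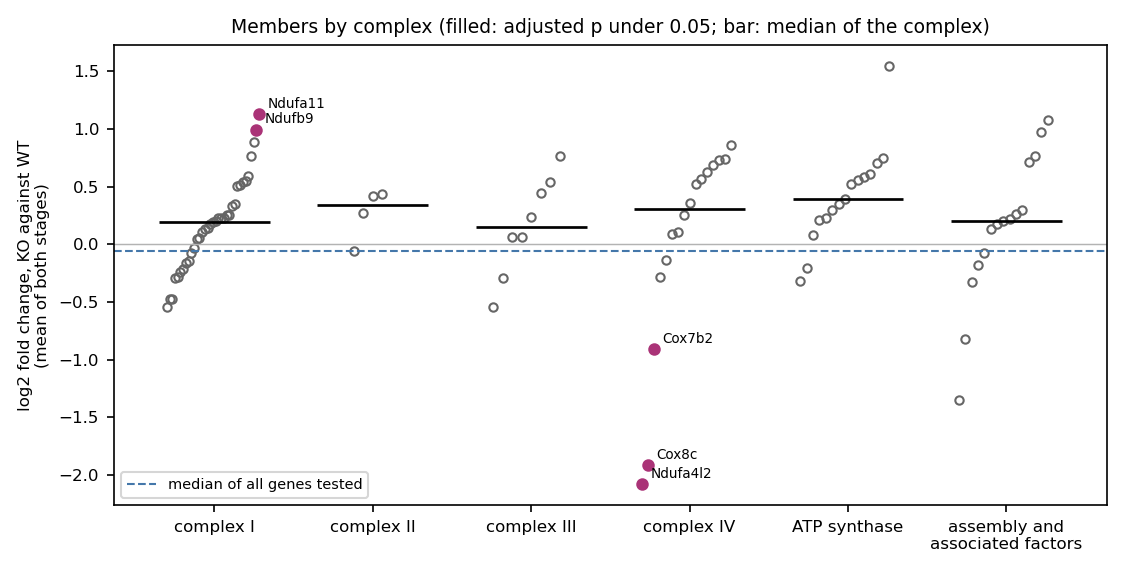
Log2 fold change of each of the 93 members in KO against WT, averaged over leptotene and zygotene, by complex; filled points had an adjusted p under 0.05, bars are the medians of the complexes and the dashed line is the median of all genes tested. All 6 medians lie above 0, from 0.15 in complex III to 0.39 in ATP synthase, while Cox8c, Cox7b2 and Ndufa4l2 lie far under the other subunits of complex IV.

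Levels of the members were above those of most genes. Averaged over the 8 libraries, the median member stood at 27.5 scaled TPM, compared with 6.21 for all genes tested, and 75 of 93 members had a mean over 10. The lowest mean was 1.29 and the highest 222, that of Atp5b, the catalytic beta subunit of ATP synthase. At 0 in at least 1 library were 5 members, which says only that no transcript with a value was assigned to them there. Members lie on 19 chromosomes, and 3 are X-linked (Ndufa1, Ndufb11 and Cox7b). Exons of 33 members overlap those of another annotated gene, on the opposite strand for 30 of them. The file headers name no strand option, so the values of those genes are uncertain. Among the members that passed the test, Ndufa11 overlaps Vmac by 70 bases and Ndufa4l2 overlaps Shmt2 by 32 bases, both on the opposite strand, and Ndufb9 overlaps an unnamed gene model by 201 bases on its own strand.

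Complex I, which oxidises NADH, had 2 members that rose. Ndufb9, an accessory subunit of the membrane arm (chr15:58933756-58939488, plus strand), stood in WT at 39.0 and 53.3 scaled TPM at leptotene and 29.8 and 43.7 at zygotene. In KO it stood at 94.5 and 72.4 at leptotene and 79.8 and 82.5 at zygotene. Every KO library lay above every WT library, and the means differed 1.99-fold (41.4 ± 9.76 in WT and 82.3 ± 9.16 in KO, SD, n = 4). The log2 fold change was 1.0 ± 0.19 (limma, adjusted p = 0.0202). This call was lost when WT leptotene replicate 1, KO leptotene replicate 1, WT zygotene replicate 1 or KO zygotene replicate 2 was left out, with limma adjusted p between 0.0573 and 0.0720, and the log2 fold change stayed between 0.86 and 1.13 over all 8 omissions.

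Ndufa11, another accessory subunit of the membrane arm (chr17:56717767-56722141, plus strand), stood at 5.48 and 12.9 scaled TPM in WT leptotene and 6.41 and 5.58 in WT zygotene. The KO values were 14.8 and 16.8 at leptotene and 19.1 and 16.8 at zygotene. No KO library fell within the WT range, although WT leptotene replicate 2 came close to it. Its log2 fold change was 1.13 ± 0.29 (limma, adjusted p = 0.0483). Leaving out WT leptotene replicate 2 kept this call at an adjusted p of 0.0380 in limma. Without any of the other 7 libraries (WT leptotene replicate 1, KO leptotene replicates 1 and 2, both WT zygotene and both KO zygotene replicates) the adjusted p was between 0.0881 and 0.143 and the call was lost.

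The other 33 subunits of complex I did not pass the test, and 24 of all 35 had a positive estimate, with a median log2 fold change of 0.19. Ndufv1, the flavoprotein that binds NADH, stood between 63.1 and 82.7 scaled TPM in WT and between 102 and 115 in KO, with no overlap (log2 fold change 0.52 ± 0.15, limma adjusted p = 0.0763). The most negative estimate was that of the accessory subunit Ndufb5, at 18.6 to 21.7 in WT and 9.43 to 15.9 in KO (-0.54 ± 0.22, limma adjusted p = 0.168). Ndufb5 shares 616 exonic bases with Mrpl47 on the opposite strand. The X-linked subunits Ndufa1 and Ndufb11 had estimates of 0.23 ± 0.27 and 0.26 ± 0.23, and their KO and WT libraries overlapped. Subunits of 1 complex thus lay on both sides of 0, and the summed level of complex I, 825 to 868 scaled TPM over the WT libraries and 924 to 1122 over the KO libraries, did not overlap between the genotypes. As a percentage of the TPM of all genes, without the scaling, it did (0.0991% to 0.124% in WT and 0.110% to 0.137% in KO).

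**Figure D2:**
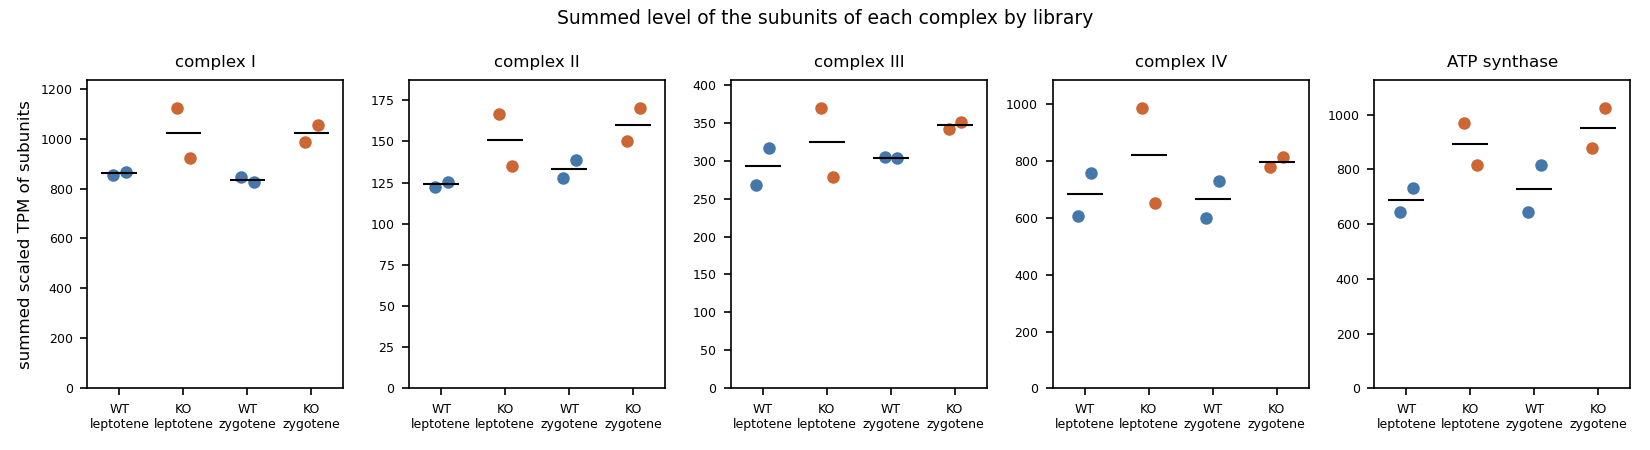
Summed scaled TPM of the members of each complex in each of the 8 libraries. Points are libraries and bars the means of the 2 libraries of a group. Cyc1 and Usmg5, outside the naming rule, are not in the sums. On this scale KO libraries lie above all WT libraries in complex I and, by a narrow gap, in ATP synthase, which overlap as a percentage of the TPM of all genes; the genotypes overlap in complexes II, III and IV.

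Of complex II, succinate dehydrogenase, none of the 4 subunits passed the test, and 3 of 4 estimates were positive. Sdha, the flavoprotein subunit, ranged from 50.1 to 64.0 scaled TPM in WT and from 72.3 to 84.2 in KO, with a log2 fold change of 0.42 ± 0.14 (limma, adjusted p = 0.111). Sdhc, a membrane anchor, ranged from 10.9 to 13.1 in WT and from 13.5 to 18.9 in KO (0.44 ± 0.20, limma adjusted p = 0.221). The KO libraries lay above the WT libraries for these 2 genes, as they did for 7.01% of all genes tested. Sdhb, the iron-sulphur subunit, overlapped between the genotypes (39.3 to 45.1 in WT and 30.1 to 54.1 in KO, log2 fold change -0.05 ± 0.20).

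Complex III, which reduces cytochrome c, had no subunit past the threshold among the 8 that the naming rule took. Their median log2 fold change was 0.15. Uqcr11, a small subunit, stood at 22.9 to 27.3 scaled TPM in WT and at 31.4 to 55.8 in KO (0.77 ± 0.21, limma adjusted p = 0.0578). Uqcrh, the hinge subunit, stood at 41.1 to 50.9 in WT and 57.1 to 66.1 in KO (0.44 ± 0.15, limma adjusted p = 0.108). Uqcrq went the other way, from 33.2 to 46.2 in WT and 21.0 to 32.8 in KO (-0.54 ± 0.18, limma adjusted p = 0.106). In each of these 3 genes the genotypes did not overlap, whereas those of Uqcrc1, a core subunit and the most abundant of the complex, did (75.8 to 97.8 in WT and 82.3 to 98.2 in KO). Over all genes tested, 7.01% lay above WT in every KO library and 10.7% below. Uqcr11 and Uqcrq were named for the largest estimate each way in the complex.

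Complex IV, which reduces oxygen, held the 3 members that fell. Cox8c, the testis isoform of subunit 8 (chr12:102899316-102900526, plus strand), stood in WT at 65.6 and 77.3 scaled TPM at leptotene and at 71.3 and 93.4 at zygotene. In KO it stood at 24.8 and 12.1 at leptotene and at 28.9 and 16.4 at zygotene. The highest KO library was under the lowest WT library, and the means differed 3.74-fold (76.9 ± 12 in WT and 20.6 ± 7.68 in KO, SD, n = 4). On the log2 scale the change was -1.91 ± 0.27 (limma, adjusted p = 0.00714). Cox8c passed the test under each of the 19 alternative analyses of the mean of both stages, the omission of each library among them, with a limma adjusted p between 8.9e-04 and 0.0485.

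Cox8a, the ubiquitous isoform of the same subunit, stood at 22.6 and 44.0 scaled TPM in WT leptotene and 27.3 and 37.5 in WT zygotene. In KO the values were 84.5 and 25.9 at leptotene and 47.1 and 58.9 at zygotene. Because of KO leptotene replicate 2 the genotypes overlapped, and the log2 fold change of 0.63 ± 0.38 did not pass the test (limma, adjusted p = 0.343). Cox8c made up 70.4% ± 4.64 of the summed TPM of Cox8a and Cox8c in WT and 28.6% ± 7.75 in KO (SD, n = 4). Thus the testis isoform was the more abundant of the 2 in all 4 WT libraries (63.7% to 74.4%) and the less abundant in all 4 KO libraries (21.8% to 38.1%). The exact 2-sided permutation test over 4 against 4 libraries gave p = 0.0286, the smallest that 70 arrangements allow, and 0.0762 after Benjamini-Hochberg adjustment over the 8 isoform shares tested. On its own values alone no share could pass after this adjustment, so the adjusted p does not decide on Cox8c. The remaining isoform, Cox8b, had no value.

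**Figure D3:**
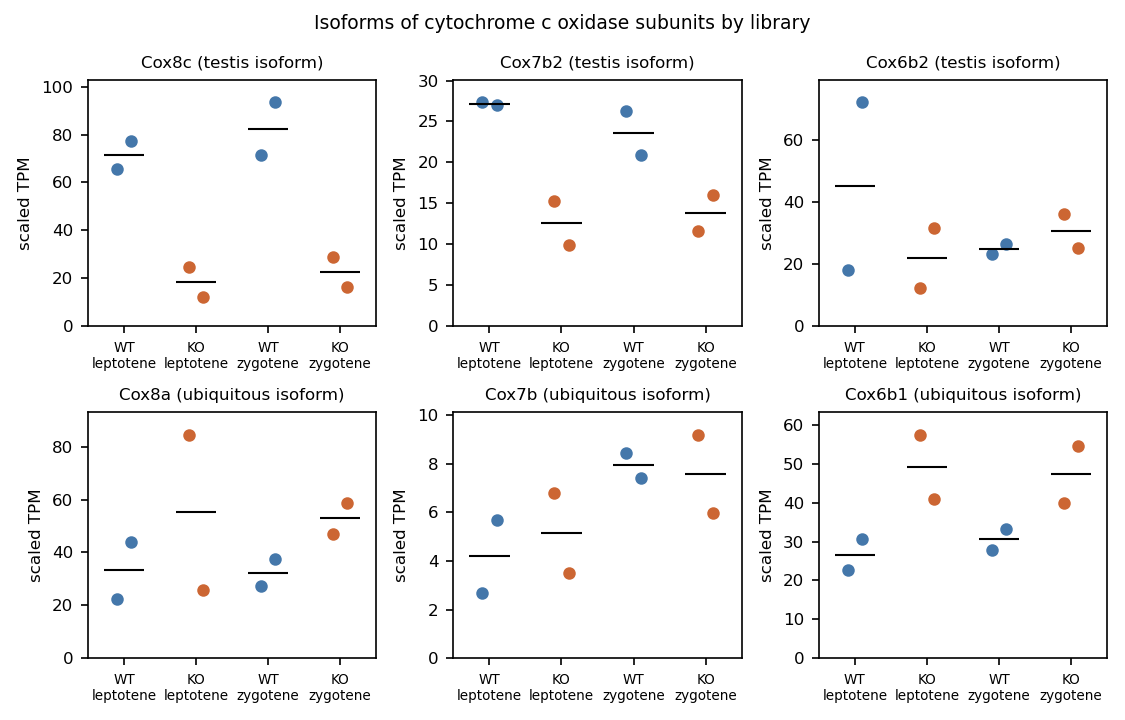
Scaled TPM of the testis isoforms Cox8c, Cox7b2 and Cox6b2 and of their ubiquitous counterparts Cox8a, Cox7b and Cox6b1 in each library; points are libraries, bars the means of the 2 libraries of a group. KO libraries of Cox8c and Cox7b2 lie under all WT libraries, those of Cox6b1 lie above all WT libraries, and the remaining 3 genes overlap between the genotypes.

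Cox7b2, the testis isoform of subunit 7b (chr5:71442824-71548205, minus strand), stood at 27.3 and 27.0 scaled TPM in WT leptotene and 26.3 and 20.9 in WT zygotene. Its KO values were 15.3 and 9.91 at leptotene and 11.7 and 16.0 at zygotene, under the WT range. The log2 fold change was -0.91 ± 0.22 (limma, adjusted p = 0.0428), and the ratio of the means was 1.92. This call lay close to the threshold: it was lost when any 1 of the 8 libraries was left out, with limma adjusted p between 0.0536 and 0.131 and a log2 fold change between -1.04 and -0.76.

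Its ubiquitous counterpart Cox7b, which is X-linked, was the lower of the pair in every library, at 2.68 and 5.70 scaled TPM in WT leptotene, 8.45 and 7.43 in WT zygotene, 6.78 and 3.51 in KO leptotene and 9.19 and 5.97 in KO zygotene. Groups overlapped, and the KO-WT difference was 0.09 ± 0.35 on the log2 scale (limma, adjusted p = 0.918). Cox7b2 was 80.8% ± 7.85 of the pair in WT and 68.0% ± 8.28 in KO (SD, n = 4, exact permutation p = 0.0571, adjusted 0.0914). KO leptotene replicate 2, at 73.8%, lay just above WT zygotene replicate 2, at 73.7%. The pair thus differed less clearly in its shares than subunit 8, with a difference of 12.8 percentage points in Cox7b2 and 41.8 in Cox8c; the difference between these shares was not tested.

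The promoters of this pair are shown because the testis isoform fell and its counterpart did not pass the test. They are the 250 bases before the start site, 5′ to 3′ on the strand of the gene, from RefSeq (GRCm38.p6), for Cox7b2 at chr5:71548206-71548455 on the minus strand and for Cox7b at chrX:106015450-106015699 on the plus strand. Capitals mark a match to the TATA box letters TATAAA on either strand.
Cox7b2: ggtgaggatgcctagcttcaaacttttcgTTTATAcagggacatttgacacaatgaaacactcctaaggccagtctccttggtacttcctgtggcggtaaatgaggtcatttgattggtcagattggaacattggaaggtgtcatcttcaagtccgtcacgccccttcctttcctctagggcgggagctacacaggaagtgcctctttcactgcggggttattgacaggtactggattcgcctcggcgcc
Cox7b: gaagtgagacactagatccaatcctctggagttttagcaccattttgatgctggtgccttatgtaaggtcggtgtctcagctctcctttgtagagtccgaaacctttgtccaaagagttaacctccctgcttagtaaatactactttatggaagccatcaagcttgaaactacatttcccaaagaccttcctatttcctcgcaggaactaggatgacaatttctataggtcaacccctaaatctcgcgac
Cox7b2 holds the letters on the reverse strand, far from the start, and Cox7b does not hold them in this window. Of all 32851 RefSeq promoter windows of 300 bases (250 before and 50 after the start) 13.6% hold TATAAA on either strand, compared with 9.88% of the 81 windows of the 76 members that matched by symbol. A match is a description of letters and not a binding site. Cox8c, Ndufa4l2 and Ndufb9 are among the members with no entry.

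Cox6b2, the testis isoform of subunit 6b, stood at 18.0 and 72.1 scaled TPM in WT leptotene, 23.3 and 26.6 in WT zygotene, 12.3 and 31.7 in KO leptotene and 36.3 and 25.3 in KO zygotene. The 2 WT leptotene libraries held the second lowest and the highest value of all, so the spread within a group was as wide as any between groups. Its log2 fold change was -0.28 ± 0.45 (limma, adjusted p = 0.760), and over the omission of each library it ranged from -0.77 to 0.20. Cox6b1, the ubiquitous isoform, stood at 22.6 and 30.6 in WT leptotene, 27.9 and 33.2 in WT zygotene, 57.5 and 41.0 in KO leptotene and 40.0 and 54.6 in KO zygotene. All its KO libraries were above its WT libraries, without passing the test (0.73 ± 0.20, limma adjusted p = 0.0636). Cox6b2 was 51.1% ± 12.7 of the pair in WT and 35.1% ± 13.5 in KO (SD, n = 4, exact permutation p = 0.200, adjusted 0.229).

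Ndufa4l2, a paralogue of the complex IV subunit Ndufa4 that is known for its induction by low oxygen (chr10:127514967-127517154, plus strand), also fell. It stood at 10.5 and 13.8 scaled TPM in WT leptotene, 9.15 and 18.1 in WT zygotene, 7.04 and 3.22 in KO leptotene, and 0 and 2.07 in KO zygotene. Each KO library was under each WT library. The log2 fold change was -2.08 ± 0.46 (limma, adjusted p = 0.0310). Only 42.6% of its TPM came from reference transcripts, and with reference transcripts alone the change was -0.97 with a limma adjusted p of 0.397. The call held without KO zygotene replicate 2 (limma adjusted p = 0.0300) and was lost without any of the other 7 libraries (both WT leptotene, both KO leptotene and both WT zygotene replicates and KO zygotene replicate 1), at 0.0508 to 0.121. Ndufa4 itself ranged from 14.1 to 17.7 in WT and from 20.1 to 44.9 in KO, without passing the test (0.74, limma adjusted p = 0.127).

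Among the remaining subunits of complex IV, estimates were mostly positive, as for 11 of all 16, and none passed the test. Cox4i1, the ubiquitous isoform of subunit 4 and the most abundant subunit of the complex, stood at 140 and 173 scaled TPM in WT leptotene and 150 and 159 in WT zygotene. In KO it stood at 296 and 186 at leptotene and 220 and 235 at zygotene, above every WT library (0.57 ± 0.19, limma adjusted p = 0.0994). Cox6a1 also lay higher in all 4 KO libraries (111 to 136) than in the WT libraries (63.9 to 97.2), at 0.69 ± 0.18 with a limma adjusted p of 0.0555. Cox4i2, the isoform of subunit 4 known from lung, is not named in the files and had a value only by its position, at 0.685% ± 0.879 of the pair in WT and 0.0635% ± 0.127 in KO (exact permutation p = 0.429). Cox7a1, the isoform of muscle, was 1.85% ± 2.15 of its pair with Cox7a2 in WT and 4.87% ± 3.52 in KO (SD, n = 4, exact permutation p = 0.200). It was at 0 in 3 libraries. For Cox6a2, the muscle isoform of subunit 6a, no value was had.

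**Figure D4:**
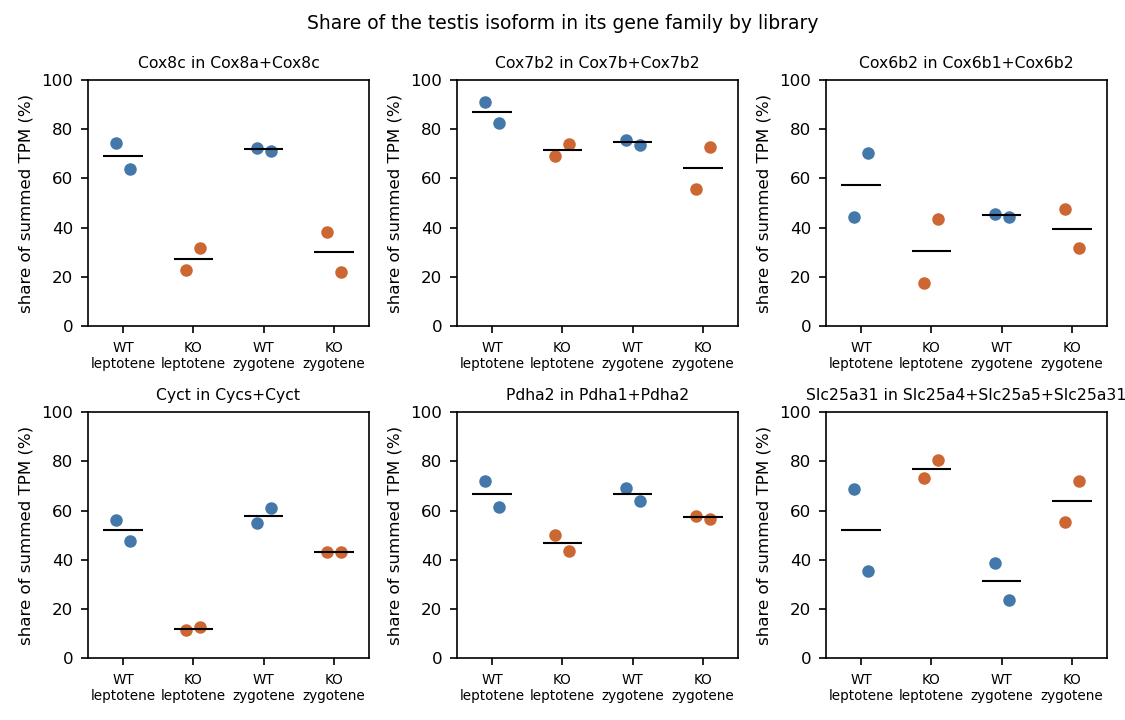
Share of the testis isoform in the summed TPM of its gene family, in percent, for 3 subunits of complex IV and for cytochrome c, the pyruvate dehydrogenase alpha subunit and the ADP/ATP carriers; points are libraries and bars the means of the 2 libraries of a group. The share of Cox8c lies at 63.7% to 74.4% in WT and 21.8% to 38.1% in KO, and Slc25a31 is the 1 family of the 6 in which the mean share was higher in KO.

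ATP synthase had the highest median log2 fold change of the 5 complexes, 0.39, with a positive estimate for 13 of 15 subunits and none past the threshold. At an unadjusted p under 0.05, 6 were higher and 0 lower, beside 9.14% and 16.4% of all genes. The summed level of its subunits, 644 to 815 scaled TPM over the WT libraries and 817 to 1025 over the KO libraries, came close to overlapping, and as a percentage of the TPM of all genes it overlapped (0.0750% to 0.122% in WT and 0.0975% to 0.129% in KO). The catalytic subunit Atp5b stood at 183 and 203 scaled TPM in WT leptotene, 175 and 218 in WT zygotene, 250 and 223 in KO leptotene and 235 and 289 in KO zygotene. Its KO libraries lay above its WT libraries (0.35 ± 0.16, limma adjusted p = 0.212). Atp5a1, the alpha subunit, stood at 87.3 to 108 in WT and 108 to 116 in KO (0.21 ± 0.15, limma adjusted p = 0.415).

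Subunit c, which forms the rotor ring, is encoded by Atp5g1, Atp5g2 and Atp5g3. Atp5g1 had the largest positive estimate of the complex, 1.54 ± 0.58, and the widest spread, at 4.0 and 6.02 scaled TPM in WT leptotene, 12.8 and 3.5 in WT zygotene, 32.0 and 5.22 in KO leptotene and 37.3 and 19.0 in KO zygotene. KO leptotene replicate 2 fell within the WT range, and the limma adjusted p was 0.140. Atp5g2 (26.6 to 41.6 in WT and 49.7 to 63.3 in KO) and Atp5g3 (21.5 to 39.9 and 46.3 to 71.5), chosen for naming after their values were seen, did not overlap between the genotypes and also missed the threshold (limma adjusted p = 0.0810 and 0.0883). Atp5h, a subunit of the stalk that holds the catalytic head, had the most negative estimate, -0.32 ± 0.17, with overlapping libraries (52.3 to 75.2 in WT and 37.0 to 58.1 in KO).

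None of the 15 assembly and associated factors passed the test, and 10 estimates were positive. Ndufaf3, a complex I assembly factor, stood at 32.5 and 47.7 scaled TPM in WT leptotene, 39.0 and 49.8 in WT zygotene, 26.6 and 17.0 in KO leptotene and 35.5 and 17.9 in KO zygotene (-0.82 ± 0.27, limma adjusted p = 0.104). KO zygotene replicate 1 overlapped the WT range. Ndufaf2 had the most negative estimate (-1.35 ± 0.62, limma adjusted p = 0.219) and Ndufaf6 the most positive (1.08 ± 0.58, limma adjusted p = 0.294). These 2 assembly factors were low, at most 11.7 in any library, and each was at 0 in 1 library. Only 39.9% of the TPM of Ndufaf2 and 41.1% of that of Ndufaf6 came from reference transcripts. Over the alternative settings other than omissions, their estimates ran from -2.26 to -0.39 and from 0.05 to 1.92. Ndufaf2 shares 1955 exonic bases with a gene on the opposite strand. Cox7a2l, an assembly factor of respiratory supercomplexes, ranged from 30.6 to 34.3 in WT and from 18.8 to 32.0 in KO (-0.32 ± 0.21, limma adjusted p = 0.385).

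Taking the libraries as they stand, 21 of the 93 members (22.6%) were higher in each of the 4 KO libraries than in any WT library, where 7.01% of all genes tested were. They belong to every complex: 6 of 35 in complex I, 2 of 4 in complex II, 2 of 8 in complex III, 4 of 16 in complex IV, 5 of 15 in ATP synthase and 2 of 15 among the assembly factors. Lower in each KO library were 6 members (6.45%), where 10.7% of all genes were, among them Cox8c, Cox7b2, Ndufa4l2, Ndufb5 and Uqcrq. Summed over all 93 members, scaled TPM overlapped between the genotypes, at 2672 to 2994 in WT and 2968 to 3798 in KO. As a percentage of the TPM of all genes the sum overlapped too (0.310% to 0.449% in WT and 0.354% to 0.464% in KO).

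Paired within the 2 kinds of library, by stage, KO was higher than WT in 4 of 4 pairs for 33 members (35.5%) and lower in 4 of 4 for 8 (8.60%). Over all genes tested these shares were 14.3% and 19.2%. Direction is fixed here for every gene whose genotypes do not overlap, the 5 members past the threshold among them. The 33 therefore include the 21 members given above and the 8 include the 6, and for those the pairs add nothing. Over all genes the shares likewise include the 7.01% and 10.7% given above. For Cox8c the 4 differences ran from -2.35 to -1.60 on the log2 scale, for Cox7b2 from -1.38 to -0.68, for Ndufb9 from 0.81 to 1.44, for Ndufa11 from 0.19 to 1.61 and for Ndufa4l2 from -4.26 to -0.88. The median over the members was positive in each of the 4 pairs, from 0.13 to 0.32.

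At single stages, with 2 libraries against 2, none of the members passed the test in limma. At leptotene 0.109% of all genes were called higher and 1.19% lower, and at zygotene 0.161% and 0.712%. At an unadjusted p under 0.05, 12 members were higher and 4 lower at leptotene (5.58% and 12.3% of all genes), and 10 higher and 4 lower at zygotene (5.95% and 10.6%). Median log2 fold changes of the members were 0.22 at leptotene and 0.27 at zygotene, compared with -0.06 at each stage over all genes. The leptotene median was 0.42 without KO leptotene replicate 2. Estimates were positive at both stages for 53 members, negative at both for 17 and unlike for 23. Across the 93 genes, which are not independent replicates, the 2 sets of estimates correlated with r = 0.657. Cox8c had nearly the same estimate at the 2 stages, -1.97 ± 0.39 and -1.85 ± 0.39 (limma, adjusted p = 0.0544 and 0.0730).

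**Figure D5:**
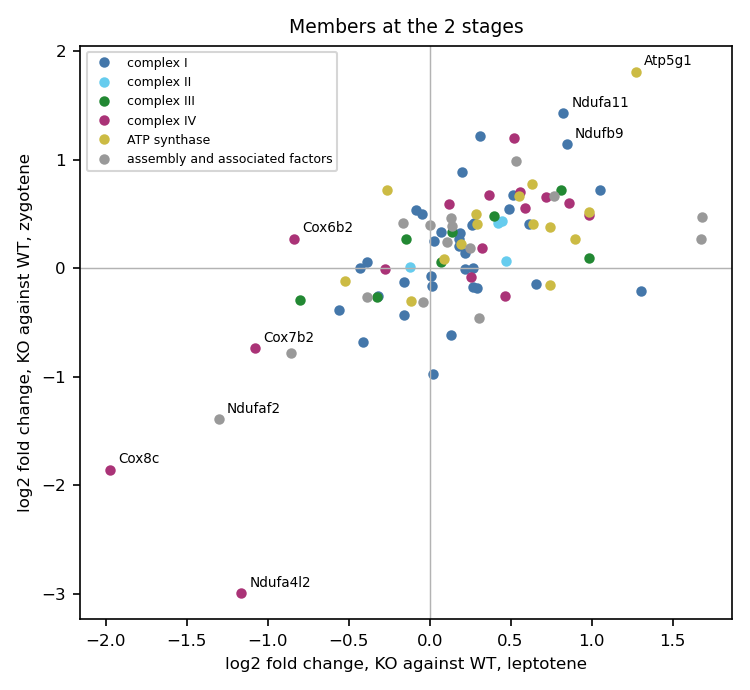
Log2 fold change in KO against WT at leptotene (x axis) and at zygotene (y axis) for each of the 93 members, coloured by complex. Estimates have the same sign at the 2 stages for 70 members, and Cox8c, Cox7b2 and Ndufa4l2 lie in the lower left.

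Between the stages the members differed little beyond the spread of the libraries. No member passed the limma test for zygotene against leptotene. In WT 0.00869% of all genes were called higher and 0% lower, and in KO 0.013% and 0.00869%. At an unadjusted p under 0.05 there were 2 higher members and 0 lower in WT (1.95% and 2.02% of all genes), and 1 higher and 5 lower in KO (3.29% and 1.9%). For the interaction of genotype and stage no member passed either the adjusted threshold (0.00434% of all genes higher and 0.00869% lower) or the unadjusted one (2.06% and 1.6%). The 2 in WT were Atp5e, the epsilon subunit of ATP synthase, and the X-linked Ndufb11, named here for that reason alone. Atp5e stood at 25.9 and 27.4 scaled TPM in WT leptotene and 43.5 and 41.6 in WT zygotene, a log2 difference of 0.66 ± 0.21 (limma, adjusted p = 1). In KO, Atp5e stood at 49.2 and 41.7 at leptotene and 55.3 and 56.1 at zygotene, with overlap between the genotypes. None of the 93 members was higher in all 4 zygotene libraries than in all 4 leptotene libraries (1.04% of all genes were), and 1 was lower (0.751%). The median stage difference was 0.02 in WT and 0.09 in KO. Its sign turned with the omission of single libraries, from -0.07 to 0.10 in WT and from -0.13 to 0.19 in KO.

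Promoter letters were also searched for 3 motifs known from respiratory genes, on both strands of the same 300-base RefSeq windows. The core of the nuclear respiratory factor 1 site, GCATGCG, was in 16.0% of the windows of members and in 3.58% of all windows. The core bound by ETS factors such as GABP, CCGGAAG, was in 25.9% and 8.86%, and the cyclic AMP response element TGACGTC in 8.64% and 3.21%. Windows of members also had a higher median GC content, 56.8% compared with 52.4%, and motifs rich in G and C move with it. Ndufa11, which rose in KO, is shown because it holds both GCATGCG and TGACGTC, in capitals, each as overlapping matches on both strands. Its 250 bases before the start lie at chr17:56717512-56717761 on the plus strand.
Ndufa11: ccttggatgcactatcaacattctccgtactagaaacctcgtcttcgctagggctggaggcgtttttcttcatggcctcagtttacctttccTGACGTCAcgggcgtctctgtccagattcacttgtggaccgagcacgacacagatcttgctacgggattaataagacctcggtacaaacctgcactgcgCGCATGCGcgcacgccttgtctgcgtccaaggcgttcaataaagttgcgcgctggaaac
Neither the factors nor their binding were measured here.

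Genes of the same pathway outside the naming rule were described from lists. Of the 13 subunits encoded in mitochondrial DNA none passed the limma test over both stages. At an unadjusted p under 0.05 there were 0 of 13 in each direction, beside 9.14% higher and 16.4% lower of all genes. The median log2 fold change was 0.32 with 10 positive estimates, and the lowest was -4.0. The WT leptotene libraries lay far apart, as for mt-Nd1 at 6325 and 2331 scaled TPM. For mt-Nd3, KO leptotene replicate 1 and KO zygotene replicate 2 were at 0. Of 15 electron carriers and exchange proteins 1 rose and 1 fell, where 2.23% of all genes tested were called higher and 6.59% lower. Cyct, the testis cytochrome c, stood at 10.3 and 10.8 scaled TPM in WT leptotene, 10.3 and 8.29 in WT zygotene, 1.55 and 2.15 in KO leptotene and 7.59 and 7.99 in KO zygotene (-1.12 ± 0.27, limma adjusted p = 0.0408). Its share of Cyct and the somatic Cycs was 55.0% ± 5.57 in WT and 27.6% ± 18.0 in KO (SD, n = 4, exact permutation p = 0.0286, adjusted 0.0762). KO leptotene libraries, at 11.4% and 12.6%, lay far under KO zygotene libraries, at 43.3% and 43.0%. The call on Cyct was lost when any 1 of the 8 libraries was left out (limma adjusted p of 0.0710 to 0.128) and with same-numbered libraries of a genotype linked. It was also lost with a pseudocount of 5, quantile normalization, reference transcripts alone and the replicate number as a block.

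Slc25a31, the ADP/ATP carrier of germ cells, went the opposite way from Cyct, at 40.7 and 26.8 scaled TPM in WT leptotene, 26.6 and 20.4 in WT zygotene, 68.1 and 63.2 in KO leptotene and 45.6 and 67.8 in KO zygotene (1.09 ± 0.21, limma adjusted p = 0.0198). It was 41.7% ± 19.1 of the summed carriers Slc25a4, Slc25a5 and Slc25a31 in WT and 70.4% ± 10.7 in KO (SD, n = 4, exact permutation p = 0.0571, adjusted 0.0914). The call on Slc25a31 held without WT leptotene replicate 1 or KO zygotene replicate 1 and was lost without any of the other 6 libraries (limma adjusted p of 0.0510 to 0.0868). Among isoforms with a testis-restricted pattern, Cox8c, Cox7b2, Cyct and, as given below, Pdha2 fell in the mean of both stages. Slc25a31 rose and Cox6b2 did not pass the test. Cyct values of KO and WT lay closer at zygotene (7.59 and 7.99 beside 10.3 and 8.29) than at leptotene. Differences between these isoforms were not tested.

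In the citric acid cycle list of 18 genes, with pyruvate dehydrogenase, 1 rose and 2 fell (2.23% and 6.59% of all genes). Mdh2, mitochondrial malate dehydrogenase, ranged from 43.1 to 66.9 scaled TPM in WT and from 108 to 147 in KO (1.28 ± 0.19, limma adjusted p = 0.00861). Sucla2, a subunit of succinyl-CoA ligase, ranged from 45.4 to 52.3 in WT and from 22.0 to 28.4 in KO (-1.0 ± 0.15, limma adjusted p = 0.00847). Pdha2, the testis isoform of the pyruvate dehydrogenase alpha subunit, ranged from 18.5 to 22.0 in WT and from 3.95 to 14.3 in KO (-1.28 ± 0.28, limma adjusted p = 0.0286). None of these 3 genes overlapped between the genotypes, which adds little, since they were named for passing the test on the same libraries. Mdh2 and Sucla2 passed the limma test without any 1 library. The call on Pdha2 held without KO leptotene replicate 1 or KO zygotene replicate 1 and was lost without any of the other 6, at adjusted p of 0.0729 to 0.104 in limma. It was also lost with reference transcripts alone and without a filter on TPM. Of the summed TPM of Pdha1 and Pdha2, Pdha2 held 66.7% ± 4.72 in WT and 52.1% ± 6.53 in KO (SD, n = 4, exact permutation p = 0.0286, adjusted 0.0762).

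Of 37 assembly factors tested outside the naming rule, 2 rose and 0 fell (2.23% and 6.59% of all genes). Atpaf1, which assembles the catalytic head of ATP synthase, stood at 2.04 and 2.46 scaled TPM in WT leptotene, 5.18 and 6.67 in WT zygotene, 22.1 and 11 in KO leptotene and 16.6 and 14.1 in KO zygotene (1.80 ± 0.30, limma adjusted p = 0.0120). Lrpprc, which stabilises mitochondrial messenger RNA, ranged from 26.6 to 33.0 in WT and from 43.1 to 56.3 in KO (0.76 ± 0.16, limma adjusted p = 0.0243). The call on Atpaf1 was lost without WT zygotene replicate 1 or 2 (limma adjusted p of 0.0511 and 0.0518). That on Lrpprc held without KO zygotene replicate 1 and was lost without any of the other 7 libraries (0.0594 to 0.0853). With TPM as deposited, the Lrpprc call was lost as well.

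Of 13 nuclear regulators of respiratory genes, 2 rose and 1 fell (2.23% and 6.59% of all genes). Tfam, which packages mitochondrial DNA and helps to start its transcription, was lower in KO, at 15.1 to 19.2 scaled TPM in WT and 4.91 to 9.18 in KO (-1.14 ± 0.26, limma adjusted p = 0.0338). Polrmt, the mitochondrial RNA polymerase, was higher, at 22.7 to 28.7 in WT and 40.6 to 53.7 in KO (0.85 ± 0.17, limma adjusted p = 0.0235). Pprc1, a coactivator of the PGC-1 family, was higher as well, at 27.3 to 40.7 in WT and 51.3 to 81.9 in KO (1.06 ± 0.19, limma adjusted p = 0.0140). The KO and WT libraries of these 3 genes did not overlap, which adds little, since they were named for passing the test on the same libraries. Leaving out single libraries, the call on Tfam held without KO leptotene replicate 2 and was lost without any of the other 7 (limma adjusted p of 0.0672 to 0.113) and with same-numbered libraries of a genotype linked. For Polrmt it held without KO leptotene replicate 1 or KO zygotene replicate 1 and was lost without any of the other 6 (0.0577 to 0.0904). For Pprc1 it was lost without WT leptotene replicate 2, KO leptotene replicate 2 or either WT zygotene replicate (0.0531 to 0.0666). With reference transcripts alone, the calls on all 3 genes were lost. That on Polrmt was also lost with TPM as deposited, and that on Tfam without a filter on TPM and with quantile normalization.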

How the data were processed

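RNA of 8 libraries was analysed, 2 in each of 4 groups. TRIzol extraction of total RNA and a directional library kit are given per the labels' protocols. HISAT2, DESeq2 and mm10 are named per the submitters' processing notes, with no settings. Per the file headers, StringTie 2.1.2 assembled transcripts in each library, guided by Ensembl release 89. The deposited values are coverage, FPKM and TPM per transcript, and no counts were used. Read depth is unknown, so no counting interval is given.

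For each gene, deposited TPM was added up over transcripts that name it or, unnamed, overlap a GENCODE M21 gene of the same strand over at least 50% of exonic length (bedtools 2.31.1). Values were scaled by median of ratios. The test, on log2(scaled TPM + 1) with limma 3.58.1 in R 4.3.3, took genes that reached a TPM of 1 in 2 or more libraries: 4 group means, eBayes with intensity trend, 4 residual degrees of freedom, 6 comparisons, Benjamini-Hochberg over all 23025 genes, threshold 0.05. The fit was tested on simulated data. Isoform shares were tested by exact permutation. Other work used Python 3.11.15 with pandas 2.3.3, numpy 2.4.6, scipy 1.17.1 and matplotlib 3.10.9.

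The members and lists were chosen with earlier results of these data known. Named are isoform pairs, members past the threshold, the 2 most abundant members and the largest estimate each way of each complex, and X-linked members. Outside the rule, isoform partners and members of the lists past the threshold are named. Replications number 3 in the series' design text, while 2 libraries per group were analysed here. Results on 1 member are not reported here.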

Additional observations from a re-analysis of the deposited data

How the results depend on the processing

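Over the mean of both stages, 2 members were called higher and 3 lower, beside 513 and 1518 of all 23025 genes. The number called higher was 7 with a TPM minimum of 5 or with the share of unannotated single-exon transcripts as a covariate, 9 with quantile normalization, 1 with TPM as deposited and 0 with reference transcripts only. Without a filter 1 was called lower. Calls over all genes, either way, moved with these settings too. They came to 2091 of 14789 genes with a TPM minimum of 5 (10 members) and 2825 of 23025 with the covariate (11 members). They were 2058 of 23025 with quantile normalization (11 members) and 1989 of 23025 with TPM as deposited (4 members). With reference transcripts only they were 1345 of 16951 (2 members), and without a filter 1312 of 33840 (3 members). Split by scaling, calls were 9 higher and 2 lower with quantile normalization and 1 higher and 3 lower with TPM as deposited. The median over all genes was 0.09 and -0.13 under these 2, beside 0.30 and 0.14 over the members.

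Leaving out each library in turn gave 0 to 4 called higher and 1 to 2 called lower over both stages, and 0 to 1 called lower at leptotene. The members' median ranged from 0.12 to 0.42 at leptotene, from -0.13 to 0.19 for the stage difference in KO and from -0.12 to 0.18 for the interaction, with the highest of the first and the lowest of the others without KO leptotene replicate 2; the cause was not tested.

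At single stages, where none was called, Cox8c was called lower (1 member) at leptotene with a pseudocount of 5, and at both stages with a TPM minimum of 5, with TPM as deposited and with the covariate. With the covariate 1 member was called higher at zygotene. Calls over all genes, either way, were 382 at leptotene with the pseudocount of 5. With a TPM minimum of 5 they were 527 at leptotene and 357 at zygotene. With TPM as deposited they were 420 and 318, and with the covariate 888 and 806. With only the libraries of a comparison limma called no member, and no gene at all in KO against WT at either stage.

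With the replicate number as a block, 1 member was called higher and 2 lower over both stages, and none at single stages. Deviations of same-numbered libraries correlated with r = 0.19 between the stages in WT and 0.11 in KO, and with r between -0.12 and -0.09 across genotypes. Same-numbered WT and KO libraries were of different kinds, so these r cannot decide whether the numbers pair KO with WT. With same-numbered libraries of a genotype linked, chosen after seeing the data, 1 member was called higher and 1 lower over both stages and 1 lower at leptotene. A block for the kind of library, which crosses the numbers between genotypes and was also chosen after seeing the data, gave 9 higher and 4 lower over both stages, 1 lower at leptotene, and 1 higher and 1 lower at zygotene. Over both stages, calls either way among all 23025 genes were 1433 with the replicate block, 1246 with linked libraries and 2861 with the kind block. At leptotene they were 391 with linked libraries and 926 with the kind block, and at zygotene 775 with the kind block.

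Of 19 alternatives, 8 were omissions of 1 library. Among the other 11, Cox8c was called in 11, Ndufb9 in 10, Ndufa4l2 in 7, Cox7b2 in 6 and Ndufa11 in 5. Of members not called in the main fit, Atp5e was called higher in KO with a pseudocount of 0.1 and without a filter. Atp5e, Cox6a1 and Uqcr11 were called higher with a TPM minimum of 5, quantile normalization, the covariate and the kind block. Further members were called under fewer settings. No isoform share passed the adjusted threshold, and omissions say nothing on their stability, since even Cox8c gave adjusted p of 0.0914 to 0.152 there.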
